A study of Schizosaccharomyces pombe with 6 samples.

Results

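The FKBP family of fission yeast (Schizosaccharomyces pombe) was followed in RNA-seq libraries of cells exposed to rapamycin or to rapalink-1. It was taken by name as fkh1 (SPBC839.17c), fkbp39 (SPBC1347.02) and SPAC27F1.06c, which are 3 of the 7268 genes in the deposited table. The table describes fkh1 as an FKBP12 peptidyl-prolyl cis-trans isomerase and the others as predicted FKBP-type isomerases, and it gave all 3 a value above 0 in every library. The cells were wild type (972 h-), grown in rich YES medium with 3% glucose at 32°C. Cultures were left untreated, or were given rapamycin or rapalink-1 at 100 nM each and harvested 5 h later. Every condition has 2 libraries, which makes 6 in all. They came from a pair of mother cultures that were each split between flasks, and the labels do not say which library came from which mother culture.

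FKBPs are peptidyl-prolyl cis-trans isomerases, enzymes that turn the peptide bond before a proline. The small FKBP12 class is the cellular receptor of rapamycin: the drug first binds FKBP12, and the pair then docks onto the FRB domain of the TOR kinase and inhibits TOR complex 1 (TORC1), which promotes growth, translation and ribosome production. Fkh1 is the fission yeast FKBP12 and is required for the known responses of this yeast to rapamycin. Rapalink-1 joins rapamycin through a linker to sapanisertib, an inhibitor of the active site of the kinase, and it keeps the rapamycin part that binds FKBP12. The Fkbp39 protein is a larger nuclear FKBP with an acidic, nucleoplasmin-like part before its isomerase domain and has been studied as a histone chaperone. The related product of SPAC27F1.06c is much less studied.

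In the RefSeq annotation of the ASM294v3 assembly, fkh1 lies on chromosome II at 631697 to 632677 on the minus strand, with 5 exons and a coding sequence of 339 bases. The gene fkbp39, named ani1 there, lies on chromosome II at 4064520 to 4065960 on the plus strand, as 1 exon with a coding sequence of 1086 bases. SPAC27F1.06c, named ani2 there, lies on chromosome I at 4327147 to 4328468 on the minus strand, as 1 exon with a coding sequence of 1089 bases. The coding sequences hold 112, 361 and 362 codons before the stop, so that fkh1 encodes little more than an isomerase domain and the others carry a long additional part before theirs. The next lines show the longest coding stretch that aligned without gaps in all 3 genes, to let the family relation be seen. It comprises 144 bases at coding positions 127 to 270 of fkh1 (chrII:631958-632101, minus strand), 889 to 1032 of fkbp39 (chrII:4065445-4065588, plus strand) and 892 to 1035 of SPAC27F1.06c (chrI:4327337-4327480, minus strand). Each is written 5′ to 3′ on the coding strand, and capitals mark bases that all 3 genes share.
fkh1: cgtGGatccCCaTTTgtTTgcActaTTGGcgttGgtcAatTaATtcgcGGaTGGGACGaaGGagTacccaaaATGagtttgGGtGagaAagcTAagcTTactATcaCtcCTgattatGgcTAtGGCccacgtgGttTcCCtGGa
fkbp39: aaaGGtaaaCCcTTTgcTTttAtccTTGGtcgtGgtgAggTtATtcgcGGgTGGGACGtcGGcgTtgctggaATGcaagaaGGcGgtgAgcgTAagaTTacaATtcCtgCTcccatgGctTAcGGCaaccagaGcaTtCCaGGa
SPAC27F1.06c: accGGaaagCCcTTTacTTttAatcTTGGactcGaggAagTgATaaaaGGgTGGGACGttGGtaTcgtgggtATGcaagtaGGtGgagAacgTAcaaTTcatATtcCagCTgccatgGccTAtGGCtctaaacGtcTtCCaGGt
All 3 genes had the same base at 59 of the 144 positions (41.0%). The closest pair was fkbp39 and SPAC27F1.06c with 97 shared bases (67.4%), while fkh1 shared 77 bases (53.5%) with fkbp39 and 72 (50.0%) with SPAC27F1.06c. A BLAST search of the assembly with each coding sequence found no near-identical copy of any of them. The only match outside a gene's own locus (E-value up to 0.001) was between fkbp39 and SPAC27F1.06c, over 210 bases at 70.5% identity.

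The 100 bases before each RefSeq gene start are shown next, since fkbp39 and SPAC27F1.06c moved in the same direction in every comparison and fkh1 did not. They were searched on both strands for GATAA, a core bound by zinc finger factors such as Gaf1, with matches in capitals. CAGTCACA, the HomolD box of ribosomal protein genes, was searched in the same way. The box TATAAA of core promoters was the third motif. The windows are chrII:632678-632777 (minus strand), chrII:4064420-4064519 (plus strand) and chrI:4328469-4328568 (minus strand). For fkh1 and fkbp39 they include the first bases of the deposited gene model, which starts earlier than the RefSeq model.
fkh1: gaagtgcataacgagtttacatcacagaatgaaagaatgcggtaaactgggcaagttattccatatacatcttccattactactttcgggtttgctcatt
fkbp39: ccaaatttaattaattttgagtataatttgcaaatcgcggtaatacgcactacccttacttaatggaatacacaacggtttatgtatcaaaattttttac
SPAC27F1.06c: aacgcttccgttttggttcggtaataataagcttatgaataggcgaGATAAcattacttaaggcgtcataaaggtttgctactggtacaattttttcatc
GATAA was found once, before SPAC27F1.06c, and 23.9% of the 5112 windows of protein-coding genes hold it. Neither HomolD (2.35% of windows) nor TATAAA (18.8% of windows) was found before any of the 3 genes, and no matches overlapped. A match is a description of the letters in these windows.

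Levels are given as FPKM (fragments per kilobase of gene model and per scaled total of fragments). These values relate reads to gene length and library size and can be set side by side between genes. The libraries held between 16527483 and 26321118 reads, with 16527483 to 16674483 in the rapalink-1 libraries and 19959695 to 26321118 in the rapamycin libraries. Depth moved with the condition, and its part in the results was not tested. Each FKBP gene had at least 1647 reads in every library. The M mating type genes mam1 (15.8 to 24.9 FPKM), mam2 (24.3 to 41.2) and mfm2 (52.2 to 327) lay above the P genes map2 and map3 (2.21 to 3.56 FPKM), as the h- label states, while mfm1 was at 2.15 to 3.06 FPKM outside rapalink-1 and mfm3 was listed at 0. Genes that every cell uses, such as the FACT subunit spt16, were also listed at 0, so that a listed 0 is not read as absence.

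The gene fkh1 was the most abundant of the family. It stood at 573 and 582 FPKM in the untreated libraries, 594 and 556 FPKM under rapamycin, and 725 and 702 FPKM under rapalink-1. The rapalink-1 libraries were highest, whereas the rapamycin libraries lay on either side of the untreated ones. The mean level was 577 ± 6.52 FPKM untreated, 575 ± 26.9 under rapamycin and 713 ± 16.7 under rapalink-1 (SD, n = 2 each). Among 5145 protein-coding genes it ranked 214th, 214th and 202nd by level in these conditions.

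The gene fkbp39 moved furthest. It stood at 375 and 332 FPKM untreated, 505 and 469 FPKM under rapamycin, and 273 and 272 FPKM under rapalink-1. Of the 3 conditions, rapamycin was highest and rapalink-1 lowest. The mean level was 354 ± 30.3 FPKM untreated, 487 ± 25.8 under rapamycin and 272 ± 0.67 under rapalink-1 (SD, n = 2 each), and its rank among protein-coding genes went from 326th to 243rd and 439th.

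SPAC27F1.06c had the lowest level and the same order of conditions as fkbp39. It stood at 103 and 88.6 FPKM untreated, 118 and 115 FPKM under rapamycin, and 79.5 and 76.9 FPKM under rapalink-1. The untreated pair were spread over 15.4% of their mean. The mean level was 96.0 ± 10.5 FPKM untreated, 117 ± 2.36 under rapamycin and 78.2 ± 1.83 under rapalink-1 (SD, n = 2 each), at ranks 1126, 940 and 1394.

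**Figure D1:**
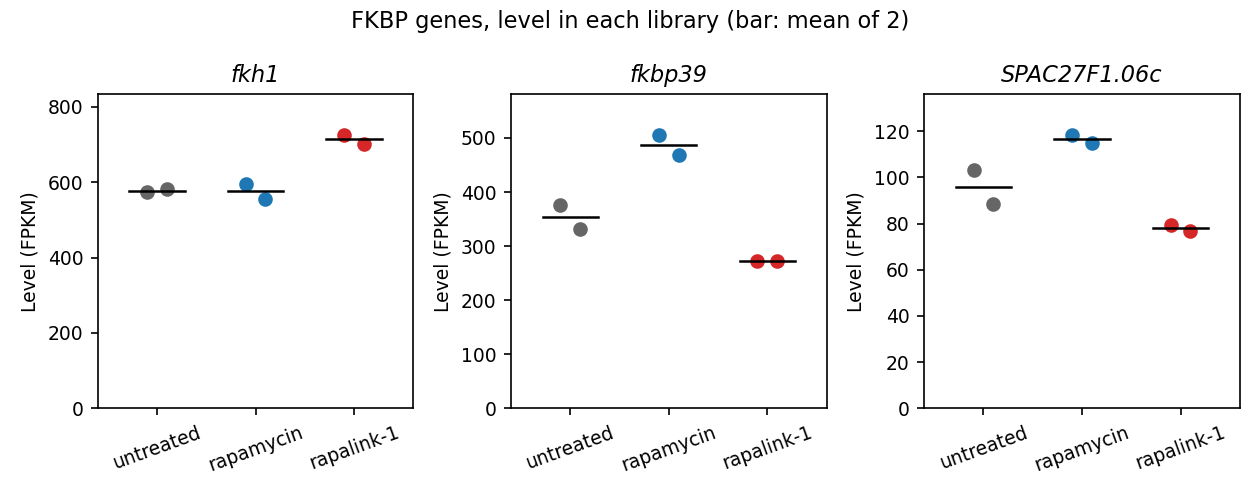
Level of the 3 FKBP genes in each of the 6 libraries (vertical axis, FPKM from 0; horizontal axis, condition), with 1 point per library and a bar at the mean of 2. fkbp39 and SPAC27F1.06c are highest with rapamycin (469 to 505 and 115 to 118 FPKM) and lowest with rapalink-1, while fkh1 is highest with rapalink-1 (702 to 725 FPKM).

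The first comparison asked how the FKBP genes responded to rapamycin itself, the ligand of Fkh1. With rapamycin, fkbp39 rose 1.38-fold and SPAC27F1.06c rose 1.22-fold, and the rapamycin receptor gene fkh1 was at 0.996 of its untreated level. The test was limma on log2(FPKM + 1) over 4847 genes with a mean of at least 1 FPKM, all 6 libraries in 1 fit, with Benjamini-Hochberg adjustment and a threshold of 0.05. It gave fkbp39 a log2 fold change of 0.46 (SE 0.061, 95% interval 0.32 to 0.60, adjusted p = 0.00282) and SPAC27F1.06c 0.28 (SE 0.066, interval 0.13 to 0.43, adjusted p = 0.0221). The estimate for fkh1 was -0.0055 on the log2 scale (SE 0.045, adjusted p = 0.943), with an interval from -0.11 to 0.10 that leaves room for changes between 0.927-fold and 1.07-fold. Thus 2 of the 3 genes passed the threshold, both upwards, beside 18.2% of all tested genes in either direction and 10.2% upwards. The call on SPAC27F1.06c was not stable: it was lost in 5 of 17 alternative settings, among them leaving out untreated 2 (log2 fold change 0.17, adjusted p = 0.0824), rapamycin 1 (adjusted p = 0.0968) or rapamycin 2 (adjusted p = 0.0853). The call on fkbp39 passed in all 17, with a log2 fold change between 0.37 and 0.55.

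The second comparison set rapalink-1 against untreated cells. Here fkh1 rose 1.24-fold, fkbp39 fell to 0.772 of its untreated level and SPAC27F1.06c fell to 0.819. The log2 fold changes from limma were 0.31 for fkh1 (SE 0.045, interval 0.20 to 0.41, adjusted p = 0.000806), -0.37 for fkbp39 (SE 0.061, interval -0.51 to -0.23, adjusted p = 0.00129) and -0.29 for SPAC27F1.06c (SE 0.066, interval -0.44 to -0.14, adjusted p = 0.00741). All 3 genes passed, where 47.4% of the tested genes passed in either direction, 24.3% upwards and 23.1% downwards. Both libraries of each condition were on the stated side for each gene. With 2 libraries against 2 such a separation cannot give an exact permutation p below 0.333. The share of all genes that separate in this way was not counted, so no conclusion is drawn from it. Quantile normalization, which moved the share of higher genes among all calls from 51.2% to 38.8%, lowered the log2 fold change of fkh1 to 0.15 (adjusted p = 0.0126), and leaving out untreated 1 brought SPAC27F1.06c to -0.18 (adjusted p = 0.0290).

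The third comparison set the related drugs against each other at the same dose and time, as the test of whether their effects differ. All 3 genes differed between rapalink-1 and rapamycin. With rapalink-1 fkh1 was 1.24-fold higher, fkbp39 was at 0.560 and SPAC27F1.06c at 0.673 of the level with rapamycin. The log2 differences from limma were 0.31 for fkh1 (SE 0.045, interval 0.21 to 0.41, adjusted p = 0.000978), -0.84 for fkbp39 (SE 0.061, interval -0.97 to -0.70, adjusted p = 2.01e-05) and -0.57 for SPAC27F1.06c (SE 0.066, interval -0.72 to -0.42, adjusted p = 0.000291). Of all tested genes 37.2% passed in this comparison, 19.6% upwards and 17.6% downwards. Among the 4329 protein-coding genes tested, fkbp39 had the 4th largest decrease and SPAC27F1.06c the 50th, and fkh1 the 451st largest increase. By size of change in either direction among all 4847 tested genes, fkbp39 ranked 148th, SPAC27F1.06c 305th and fkh1 961st. These were the calls on the same pair of drugs for 3 genes, with p-values adjusted over all 4847 genes. Quantile normalization moved the upward share of all calls from 52.8% to 41.6% and the difference of fkh1 to 0.16 (adjusted p = 0.0116). The comparison shares its rapalink-1 and rapamycin libraries with the others, so the values are not separate evidence.

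**Figure D2:**
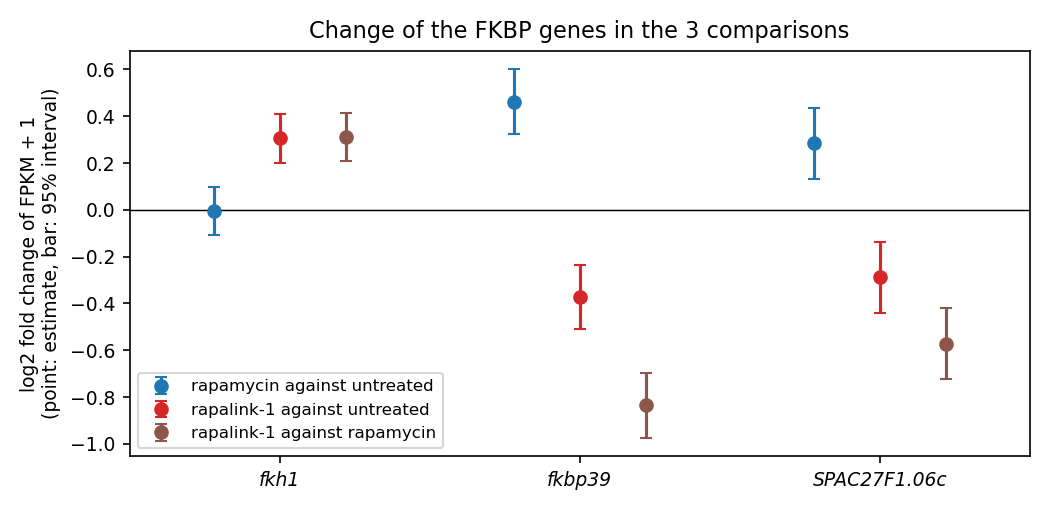
Log2 fold change of FPKM + 1 (vertical axis) of the 3 FKBP genes (horizontal axis) in the 3 comparisons, as the limma estimate with its 95% interval. Only the interval of fkh1 under rapamycin (-0.11 to 0.10) spans 0, and the largest difference is that of fkbp39 between the drugs (-0.84).

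The makeup of the family in each library showed the same shift within single samples, where library size cancels. The ratio of fkh1 to fkbp39 was 1.53 and 1.75 in the untreated libraries, 1.18 and 1.19 under rapamycin, and 2.66 and 2.58 under rapalink-1. The ratio of fkh1 to SPAC27F1.06c was 5.54 and 6.57 untreated, 5.02 and 4.84 under rapamycin, and 9.12 and 9.13 under rapalink-1. The receptor transcript thus outweighed the fkbp39 and SPAC27F1.06c transcripts most in the rapalink-1 libraries and least in the rapamycin libraries. The ratio of fkbp39 to SPAC27F1.06c varied less, at 3.63 and 3.75 untreated, 4.27 and 4.08 under rapamycin, and 3.43 and 3.54 under rapalink-1. The summed level of the 3 genes was 1051 and 1003 FPKM untreated, 1218 and 1140 under rapamycin, and 1078 and 1051 under rapalink-1, so the untreated and rapalink-1 sums met at 1051. Of that sum fkh1 made up 54.5% and 58.0% untreated, 48.8% in both rapamycin libraries, and 67.3% and 66.8% with rapalink-1. With 2 libraries against 2 an exact permutation test cannot give a p below 0.333, so these ratios carry no test.

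**Figure D3:**
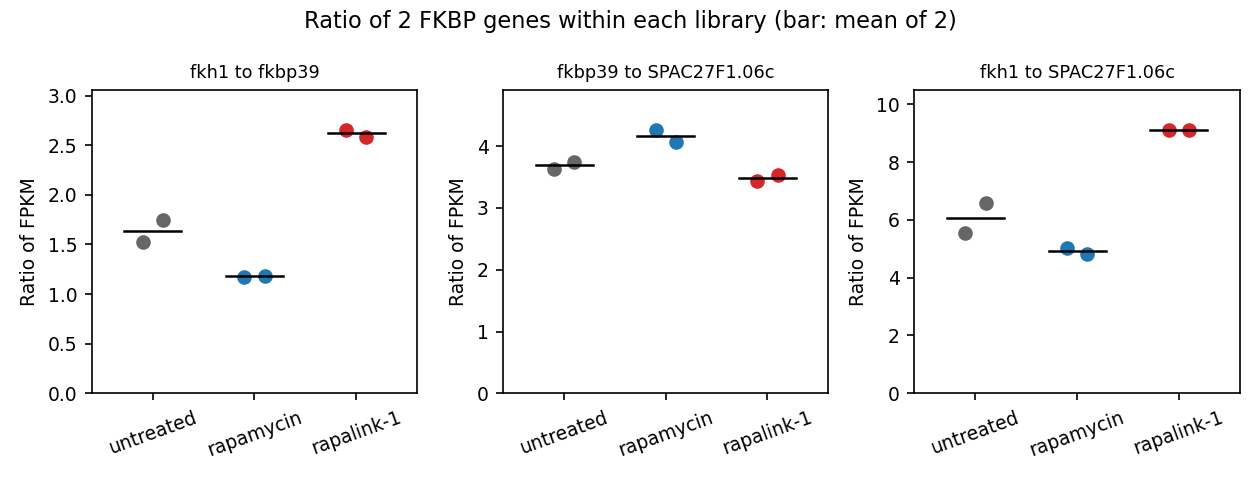
Ratio of the FPKM of 2 FKBP genes within each library (vertical axis, from 0) by condition (horizontal axis), with 1 point per library and a bar at the mean of 2. The ratios of fkh1 to the other genes are highest with rapalink-1 (2.58 to 2.66 and 9.12 to 9.13) and lowest with rapamycin.

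Cyclophilins are prolyl isomerases of another structure, which bind cyclosporin in place of rapamycin and FK506. Beside the FKBP genes 9 cyclophilin genes were taken by their descriptions, 8 of which had a level that could be tested, and wis2 was listed at 0. By the mean over the 6 libraries the order of levels was the cyclophilins ppi1 (1785 FPKM) and cyp4 (855), then fkh1 (622), fkbp39 (371) and SPAC27F1.06c (97.0), then the cyclophilin cyp1 (50.5). The ranges of ppi1 (1496 to 2039), cyp4 (823 to 870), fkh1 (556 to 725), fkbp39 (272 to 505), SPAC27F1.06c (76.9 to 118) and cyp1 (46.5 to 53.8) did not overlap. The other cyclophilins, cyp9, cyp7, cyp8, cyp3 and rct1, had means between 3.26 and 36.2 FPKM. From the lowest to the highest library, fkbp39 spanned 1.86-fold and SPAC27F1.06c 1.54-fold, beside 1.056-fold to 1.404-fold for the 8 cyclophilin genes and 1.304-fold for fkh1.

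With rapamycin none of these 8 cyclophilin genes passed the threshold in limma, edgeR or DESeq2, and 0 had an unadjusted p under 0.05 in limma. Of all tested genes 18.2% passed in limma, and edgeR called 991 and DESeq2 791 of the 4847. The log2 fold changes of the 8 cyclophilin genes ran from -0.11 to 0.02, with a median of -0.06 beside 0.00066 over all tested genes. With rapalink-1, 1 rose, 1 fell and 6 did not pass, beside 24.3% of all tested genes upwards and 23.1% downwards. The median was 0.02 beside -0.012 over all genes. Between the drugs 1 was higher with rapalink-1, 0 were lower and 7 did not pass, with a median of 0.06 beside -0.0048. Of all tested genes 19.6% were higher and 17.6% lower. The cyclophilin A type gene ppi1 stood at 1718 and 1721 FPKM untreated, 1723 and 1496 under rapamycin, and 2039 and 2010 under rapalink-1. Its log2 fold change was 0.24 (adjusted p = 0.0194) with rapalink-1 against untreated cells and 0.33 (adjusted p = 0.00502) against rapamycin. The WD repeat cyclophilin cyp9 fell with rapalink-1, with a log2 fold change of -0.20 (adjusted p = 0.0268).

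**Figure D4:**
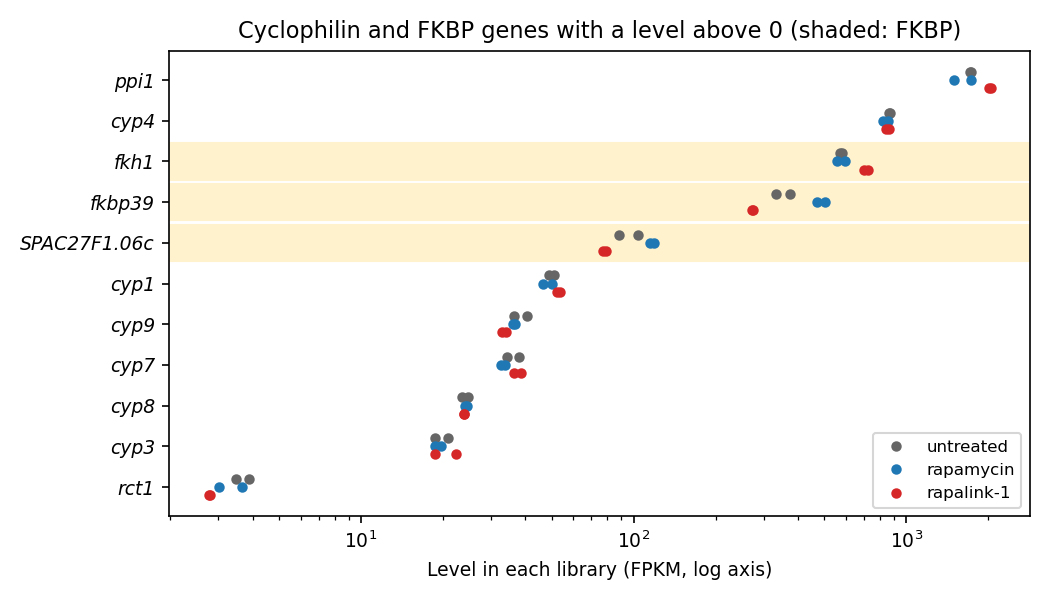
Level in each library (horizontal axis, FPKM on a log axis) of the 11 cyclophilin and FKBP genes listed above 0 (vertical axis, ordered by mean), with 1 point per library coloured by condition and the FKBP genes shaded. The points of fkbp39 (272 to 505 FPKM) are spread more widely than those of the other genes shown.

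FKBP12 bound to rapamycin acts on TORC1, so the genes of the TOR complexes were set beside the family. Of 9 subunit genes, 8 could be tested and bit61 was listed at 0. The kinase gene tor2 stood at 20.4 and 20.7 FPKM untreated, 20.9 and 19.9 under rapamycin, and 21.1 and 22.3 under rapalink-1. The kinase gene tor1 lay between 15.4 and 17.3 FPKM and the TORC1 subunit gene mip1, the Raptor of fission yeast, between 36.9 and 39.7 FPKM in the 6 libraries. None of these 3 passed in any comparison, with log2 fold changes between -0.05 and 0.08. The TORC1 subunit gene toc1 passed with both drugs, at a log2 fold change of 0.22 under rapamycin (adjusted p = 0.0251) and 0.18 under rapalink-1 (adjusted p = 0.0188), from 50.0 and 52.3 FPKM in the untreated libraries to 57.1 to 62.1 FPKM with either drug. Between the drugs 0 of the 8 passed in limma, edgeR or DESeq2, and 0 had an unadjusted p under 0.05 in limma. Over all tested genes 18.2% passed in limma with rapamycin, 47.4% with rapalink-1 and 37.2% between the drugs. For the last of these edgeR called 1908 and DESeq2 1555 of all 4847 tested genes. The medians of the list were 0.0063 under rapamycin and 0.036 under rapalink-1, against 0.00066 and -0.012 over all genes.

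FKBP12 is also the receptor of FK506, and that pair inhibits the phosphatase calcineurin. Of 5 calcineurin genes 4 were matched, and rcn1 was not matched by name. The gene of the calcineurin-dependent transcription factor Prz1 rose with both drugs, from 129 and 130 FPKM untreated to 178 and 181 under rapamycin and 156 and 183 under rapalink-1. Its log2 fold changes were 0.47 (adjusted p = 0.00344) and 0.38 (adjusted p = 0.00174). The vacuolar calcium pump gene pmc1, at 30.6 and 32.7 FPKM untreated and 32.7 and 34.7 under rapamycin, fell to 23.06 and 26.98 FPKM under rapalink-1, a log2 fold change of -0.33 (adjusted p = 0.00849) against untreated cells and -0.42 (adjusted p = 0.00353) against rapamycin. The catalytic subunit gene ppb1 and the regulatory subunit gene cnb1, named after their values were seen, fell with rapalink-1 (log2 fold change -0.14 each, adjusted p = 0.0213 and 0.0420). Thus 1 of the 4 rose and 3 did not pass with rapamycin, beside 10.2% of all tested genes upwards. With rapalink-1 against untreated cells 1 rose and 3 fell, beside 24.3% of all tested genes upwards and 23.1% downwards. Of these 4 genes, 3 passed with rapalink-1 against untreated cells in edgeR and 2 in DESeq2. Among all 4847 tested genes these tools called 2320 and 1920.

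Because Fkbp39 has been studied as a histone chaperone, 18 genes of other histone chaperones were set beside the family. Of these 16 could be tested, while spt16 and chz1 were listed at 0. With rapamycin, when fkbp39 and SPAC27F1.06c rose, 0 of the 16 rose, 4 fell and 12 did not pass. Of all 4847 tested genes 495 rose and 388 fell. The median log2 fold change of the 16 was -0.06, beside 0.00066 over all tested genes. The largest decrease was that of the FACT subunit gene pob3, from 124 and 118 FPKM untreated to 101 and 102 FPKM (log2 fold change -0.24, adjusted p = 0.00691). With rapalink-1, 1 rose, 6 fell and 9 did not pass, with a median of -0.10. Over all tested genes 24.3% rose and 23.1% fell. For rapalink-1 against untreated cells edgeR called 7 of the 16 and DESeq2 called 3, beside 2320 and 1920 of all 4847 tested genes. The Rtt106-like gene mug183 fell from 32.1 and 33.9 FPKM to 27.4 and 26.3 FPKM (-0.29, adjusted p = 0.00293), and the chromatin gene spt2 rose by 0.13 (adjusted p = 0.0422). Between the drugs 2 were higher with rapalink-1, led by the HIRA gene hip1 (0.23, adjusted p = 0.00712). A further 3 were lower, led by the CAF-1 subunit gene pcf1 (-0.21, adjusted p = 0.00579), and 11 did not pass. Of all tested genes 19.6% were higher and 17.6% lower. In this comparison edgeR called 5 of the 16 and DESeq2 called 2, beside 1908 and 1555 of all 4847 tested genes. The decreases of fkbp39 (-0.84) and SPAC27F1.06c (-0.57) between the drugs lay outside the range of these 16 genes, -0.21 to 0.23.

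Genes of ribosome biogenesis, a process that TORC1 promotes, were set beside the family as well. The list held 91 genes by description, of which 82 could be tested. It was chosen with earlier results of these data known, so its direction is not independent evidence. With rapamycin 32 rose, 4 fell and 46 did not pass, whereas 495 of all 4847 tested genes rose and 388 fell. The median log2 fold change of the list was 0.21, beside 0.00066 over all tested genes. The largest increase was that of the U3 snoRNP gene rrp9, from 34.3 and 30.9 FPKM untreated to 52.7 and 55.0 FPKM (0.71, adjusted p = 0.00236), and the largest decrease was in tif6, a factor of the large ribosomal subunit (-0.26, adjusted p = 0.00474). With rapalink-1 against untreated cells 1 rose, 32 fell and 49 did not pass, with a median of -0.14. The shares over all tested genes were 24.3% upwards and 23.1% downwards. The ABCF2-like ATPase gene SPBC16H5.08c fell from 344 and 307 FPKM to 224 and 227 FPKM (-0.53, adjusted p = 9.19e-05), and slx9 was the riser (0.22, adjusted p = 0.00419). Between the drugs 67 were lower with rapalink-1, 1 was higher and 14 did not pass, beside 17.6% of all tested genes lower and 19.6% higher. The median was -0.37 beside -0.0048 over all genes. The lowest of the listed genes was gar2, a nucleolar protein of rRNA processing, at 103 and 98.3 FPKM under rapamycin and 61.1 and 57.9 FPKM under rapalink-1 (-0.75, adjusted p = 6.82e-05). The log2 difference of fkbp39 between the drugs (-0.84) lay below all 82 (-0.75 to 0.13), and that of SPAC27F1.06c (-0.57) lay within their range.

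The genes whose pattern over the 6 libraries was most like that of each FKBP gene were sought among 3826 other protein-coding genes with a mean of at least 10 FPKM, by Pearson's r of log2(FPKM + 1). These correlations rest on 6 libraries in 3 conditions and describe the pattern without a test. For fkh1 they were dpm1, a dolichol-phosphate mannosyltransferase gene (r = 0.9995), the protein phosphatase gene ptc3 (0.9986) and SPCC70.02c, a predicted inhibitor of the mitochondrial ATP synthase (0.9983). The dpm1 gene moved less than fkh1, from 46.3 and 46.7 FPKM untreated to 52.0 and 51.2 FPKM under rapalink-1. For fkbp39 they were the RNA-binding protein gene nrp1 (0.998), mrt4 of ribosome assembly (0.994) and the RNA polymerase III subunit gene rpc11 (0.993). The nrp1 gene stood at 91.1 and 84.1 FPKM untreated, 118 and 113 under rapamycin, and 72.9 and 72.8 under rapalink-1.

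For SPAC27F1.06c the most similar genes were rpc11 (0.994), SPBC18A7.02c, which encodes a predicted receptor-like membrane protein (0.993), and pwp2, a U3 snoRNP gene (0.992). SPBC18A7.02c moved much less than SPAC27F1.06c, at 30.0 and 29.1 FPKM untreated, 30.6 in both rapamycin libraries, and 28.8 and 28.6 under rapalink-1. The rpc11 gene, shared with fkbp39, stood at 156 and 141 FPKM untreated, 175 and 172 under rapamycin, and 125 and 127 under rapalink-1. Within the family the r of fkbp39 with SPAC27F1.06c was 0.989, the 9th highest for fkbp39 and the 6th highest for SPAC27F1.06c. The r of fkh1 was -0.80 with fkbp39 and -0.82 with SPAC27F1.06c. Of the 50 genes most like fkbp39, 15 (30.0%) were in the ribosome biogenesis list, as were 15 of the 50 most like SPAC27F1.06c and 0 of the 50 most like fkh1, beside 1.96% of all genes searched. That list was chosen with earlier results of these data known and its directions are given above, so the overlap is not independent evidence.

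**Figure D5:**
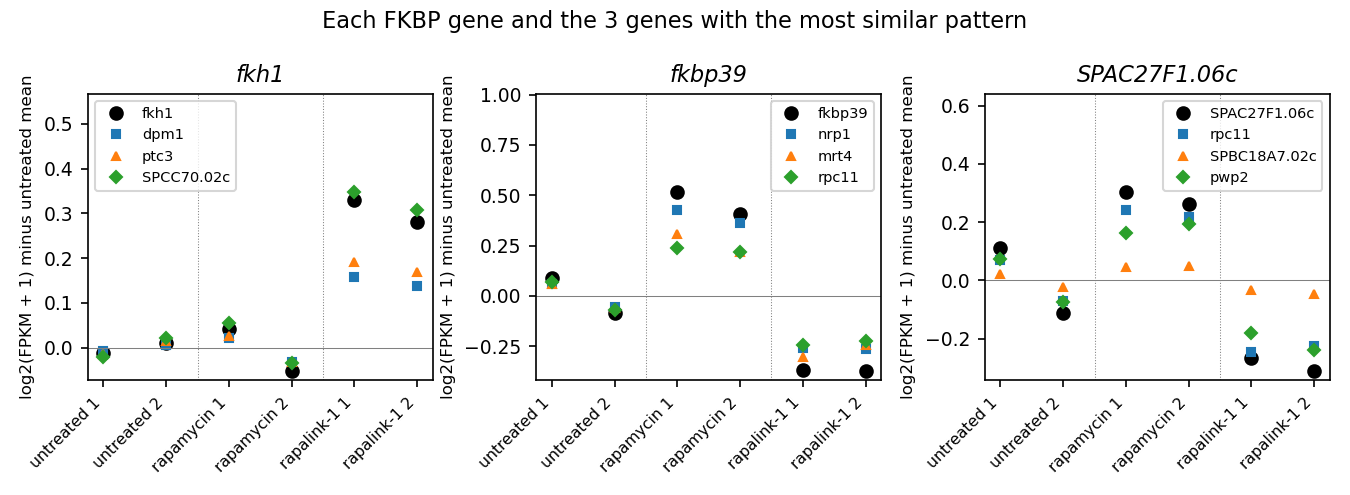
Log2(FPKM + 1) minus the untreated mean (vertical axis, a difference in log2 units, with its own scale in each panel) in each of the 6 libraries (horizontal axis) for each FKBP gene (black) and the 3 genes with the highest Pearson's r. The genes most like fkbp39 and SPAC27F1.06c are highest in the rapamycin libraries and lowest in the rapalink-1 libraries, and those most like fkh1 are highest in the rapalink-1 libraries.

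Neighbouring and overlapping genes were listed because the strand setting of the read counting is not given in the sources used here. At its end, fkh1 overlaps thf1, a gene of tetrahydrofolate synthesis on the other strand, over 14 bases (2.55% of its model). The thf1 gene rose with rapamycin (log2 fold change 0.22, adjusted p = 0.00997) as well as with rapalink-1 (0.31, adjusted p = 0.000419), from 116 and 121 FPKM to 141 and 134 FPKM and to 147 FPKM in both rapalink-1 libraries. The other neighbours of fkh1 were the elongation factor gene tef103 (log2 fold change -0.29 under rapalink-1, adjusted p = 0.00369) and SPBC115.03 (-0.22, adjusted p = 0.00672), neither of which rose.

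The gene fkbp39 overlaps the noncoding gene rev1-antisense-1 (SPNCRNA.1662) on the same strand over 63 bases (4.32% of its model), and that gene had at most 0.0245 FPKM in any library. Its neighbour rev1, 91 bases away, had between 0.427 and 0.899 FPKM, and meu14-antisense-1 on the other side had between 1.64 and 2.25 FPKM. Nearest to SPAC27F1.06c were SPAC27F1.10, at no more than 0.270 FPKM, and ost1, 494 bases away, at 240 to 258 FPKM without a change past the threshold. RefSeq also places the noncoding SPNCRNA.3946 on the strand opposite SPAC27F1.06c over 1028 bases (77.8% of the gene) and SPNCRNA.6420 opposite fkbp39 over 271 bases (18.8%), neither of which has a row in the table used here. Reads of these RNAs and of the FKBP genes could not be told apart if the counting ignored strand.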

How the data were processed

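PolyA RNA was sequenced as paired-end reads from 6 cultures. The authors deposited FPKM values for 7268 genes and tables of read counts for genes of each comparison. The submitters' processing notes name HISAT2 2.0.5, StringTie 1.3.3b, featureCounts 1.5.0-p3 and DESeq2. The genome build and the strand setting are not given in the sources used here. The deposited fold changes and p-values were not used.

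The deposited FPKM were already scaled by median-of-ratios factors (scaled library sizes were 0.986 to 1.03 of total reads), so that further scaling changed nothing. Reads recovered from FPKM were whole, within 0.001, for 100% of the values and equalled all deposited counts (2398 to 2543 genes per condition). limma 3.58.1 in R 4.3.3 was used with a pseudocount of 1, a minimum mean of 1 FPKM, a trend and Benjamini-Hochberg adjustment, without a replicate block, and every adjusted p in the text is from limma unless another tool is named. edgeR 4.0.16 and DESeq2 1.42.0 were run on the recovered reads. The scripts were tested on simulated data. The libraries of a condition differed by more than sampling noise (chi-square per degree of freedom 5.31 to 9.50), but p-values measure only the spread between these cultures.

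Genes named are the 3 FKBP genes, their overlapping or nearest genes, the 3 genes most similar to each, the largest increase and decrease in each list among calls whose mean was at least 5 FPKM and without overlap between conditions, and tor1, tor2 and mip1. Beyond this rule the text names ppb1 and cnb1, chosen after their values were seen, the cyclophilin genes in the order of levels, genes listed at 0 or not matched, and the mating type genes that check the strain. The members and lists were chosen with earlier results of these data known. An item of the list of other prolyl isomerases is not reported here. Sequences are RefSeq, ASM294v3, read with Biopython 1.88 and searched with BLAST 2.17.0. Of the 7268 gene IDs, 6846 were found in that annotation.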

Additional observations from a re-analysis of the deposited data

Results flagged for a closer look

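Each of the 3 FKBP genes had a change with rapalink-1 that differed from its change with rapamycin by the limma test of the difference itself. The test had 2 libraries per condition, and 37.2% of all tested genes passed it. It is the third comparison above and not a further result. The log2 difference (rapalink-1 minus rapamycin) was 0.31 for fkh1, -0.84 for fkbp39 and -0.57 for SPAC27F1.06c. For fkbp39 and SPAC27F1.06c the changes with rapamycin and with rapalink-1 had opposite signs (0.46 and -0.37, and 0.28 and -0.29). For fkh1 the change with rapalink-1 against untreated cells passed the threshold and that with rapamycin did not.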

How the results depend on the processing

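Across 17 alternative settings the 3 FKBP genes gave 153 values in the 3 comparisons. Of these, 145 kept their direction and their side of the threshold, 5 were no longer past the threshold and 3 changed sign. Some settings could barely move a value, such as no further scaling, since the deposited values were already scaled. The changes of fkbp39 passed in every setting of every comparison, as did those of fkh1 and SPAC27F1.06c with rapalink-1 against untreated cells and against rapamycin. The values that changed sign were those of fkh1 with rapamycin, never past the threshold: 0.0020 with edgeR, and from -0.052 to 0.044 when 1 library was left out (0.0026 without untreated 2, 0.044 without rapamycin 2). SPAC27F1.06c with rapamycin kept a log2 fold change of 0.28 but did not pass without a filter on low values (adjusted p = 0.0585), without the eBayes trend (0.0803), and also did not pass without untreated 2, rapamycin 1 or rapamycin 2 (0.0824, 0.0968 and 0.0853), over a range of 0.00330 to 0.0968 for all settings. Its log2 fold change lay between 0.17 and 0.39 when 1 library was left out. The count of all genes past the threshold with rapamycin was 883, against 409 without the trend and 236 to 999 when 1 library was left out (236 without rapamycin 2). With 1 library left out, the lone library of a condition was assumed to vary like the others. As TPM, levels were 755, 789 and 969 for fkh1, 462, 668 and 370 for fkbp39, and 125, 160 and 106 for SPAC27F1.06c (untreated, rapamycin, rapalink-1). With Spearman's rho in place of Pearson's r, 1 of the 3 genes most like fkbp39 and 0 of the 3 most like SPAC27F1.06c were again among the first 3. The cause of these shifts was not tested.

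Same-numbered libraries showed no shared shift over the tested genes: their deviations had correlations of -0.01, 0.0012 and 0.04. Whether the numbers pair the libraries by mother culture is not known. With the replicate block 883, 2307 and 1790 genes passed, beside 883, 2298 and 1804 without it, and no call on an FKBP gene changed. Each FKBP gene had 1647 or more reads in every library, and each condition had 2 libraries.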
